A study of Mus musculus with 19 samples.

Results

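Interferon-stimulated genes are the genes that cells switch on when they detect a virus or receive an interferon signal. A set of 37 of them, RNA sensors, transcription factors and antiviral effectors, was picked by gene symbol from the liver RNA-seq table of a study of RALY, an RNA-binding protein of the hnRNP family, and all 37 were among its 24054 rows. RALY had been deleted with an adeno-associated virus (AAV), so the question asked here is whether genes of the antiviral response differed between livers with and without RALY. Both groups were Raly flox/flox mice on a C57BL/6 background, fed chow and, by the study's methods, male unless otherwise specified, with LoxP sites around exons 3 and 4 of Raly. L-RalyKO mice (n = 3) had been injected intraperitoneally with AAV8.TBG.Cre, and control mice (n = 3), which the labels call wild type, with AAV8.TBG.GFP. Livers were taken 4 weeks later. TBG is a promoter that is active in hepatocytes, so the recombination is aimed at hepatocytes. Raly was not measured by cell type here. Because every mouse had received AAV8, the 2 groups differ in Cre against GFP and in Raly, which cannot be told apart here, and the response to the virus itself was not measured, as no uninjected mice were analysed here. The ages of the mice are not given in the sources used here.

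Type I interferons are recognised by a receptor whose JAK kinases activate STAT factors, and a complex that holds STAT2 and IRF9 binds the interferon-stimulated response element (ISRE) in promoters. Interferon gamma acts through another element, the gamma-activated site (GAS). In liver, hepatocytes as well as Kupffer cells, endothelial cells and lymphocytes respond to interferon, and whole liver RNA holds the transcripts of all of them.

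Stretches of promoter with the letters of an ISRE or a GAS were read from RefSeq promoter windows of GRCm38.p6. These windows run from 250 bases before to 50 bases after a start site. A window was found for 29 of the 37 genes. Rtp4, Mx2, Gbp6, Mx1, Dhx58, Usp18, Oas1b and Oas2 had none in the table. The ISRE was searched as GAAANNGAAA on both strands and the GAS as TTCNNNGAA, which reads alike on both strands, and matches of the 2 kinds may overlap. Each stretch is written 5′ to 3′ on the strand of its gene, with the named match in capitals and with 15 bases on either side. Further matches in a stretch are left in lower case. The stretch of Bst2 also holds an ISRE at -130 and a GAS at -136 from the start. That of Isg15 also holds the ISREs at -78 and -72. Where the capitals begin with TTTC, the ISRE lies on the opposite strand.

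Ifit1, ISRE, chr19:34640770-34640809 (+): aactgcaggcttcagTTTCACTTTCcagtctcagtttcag
Ifit3, ISRE, chr19:34583392-34583431 (+): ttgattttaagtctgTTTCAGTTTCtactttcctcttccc
Isg15, ISRE, chr4:156200860-156200899 (-): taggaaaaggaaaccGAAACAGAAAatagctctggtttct
Rsad2, ISRE, chr12:26456548-26456587 (-): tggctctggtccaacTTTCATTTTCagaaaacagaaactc
Bst2, ISRE, chr8:71537572-71537611 (-): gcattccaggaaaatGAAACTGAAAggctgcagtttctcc
Oas3, ISRE, chr5:120777710-120777749 (-): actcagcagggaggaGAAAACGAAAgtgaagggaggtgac
Gbp2, ISRE, chr3:142620589-142620628 (+): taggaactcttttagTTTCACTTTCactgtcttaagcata
Stat2, ISRE, chr10:128270261-128270300 (+): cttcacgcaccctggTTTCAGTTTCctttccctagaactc
Irf8, GAS, chr8:120736172-120736210 (+): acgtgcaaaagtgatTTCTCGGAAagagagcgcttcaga

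Irf1 and Irf7 are the called genes with a window, and their sequence before the start site is shown whole, 250 bases each. That of Irf1 (chr11:53769764-53770013, + strand) holds 1 GAS, in capitals, that begins 90 bases before the start, and no ISRE. Irf1 has a second window in the table, before a start further downstream (chr11:53770223-53770472, + strand), which holds neither set of letters and is not printed. That of Irf7 (chr7:141266425-141266674, - strand) holds neither set of letters, which says only that these letters are not in this window.

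Irf1: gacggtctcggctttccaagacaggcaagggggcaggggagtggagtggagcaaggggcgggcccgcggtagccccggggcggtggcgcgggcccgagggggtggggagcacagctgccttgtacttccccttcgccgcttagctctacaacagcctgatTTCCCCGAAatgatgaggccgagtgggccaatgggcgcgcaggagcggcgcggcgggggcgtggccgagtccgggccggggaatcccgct
Irf7: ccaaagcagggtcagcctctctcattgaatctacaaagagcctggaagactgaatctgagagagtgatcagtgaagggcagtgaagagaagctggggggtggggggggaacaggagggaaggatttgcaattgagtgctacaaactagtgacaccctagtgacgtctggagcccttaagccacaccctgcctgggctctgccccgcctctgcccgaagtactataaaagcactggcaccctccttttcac

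ISRE letters were present in 16 of the 29 genes with a window (55.2%), against 3.77% of the 8805 tested genes with a window and 3.44% of all 32851 windows. GAS letters were present in 10 of the 29 (34.5%), against 8.53% of tested genes and 8.30% of all windows. Either was found in 21 genes and both in 5 (Bst2, Eif2ak2, Gbp7, Irf2 and Oas1a). Of the 24 ISRE matches, 13 began within 100 bases before a start. A match is a description of the sequence and not evidence that a factor is bound there.

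**Figure D1:**
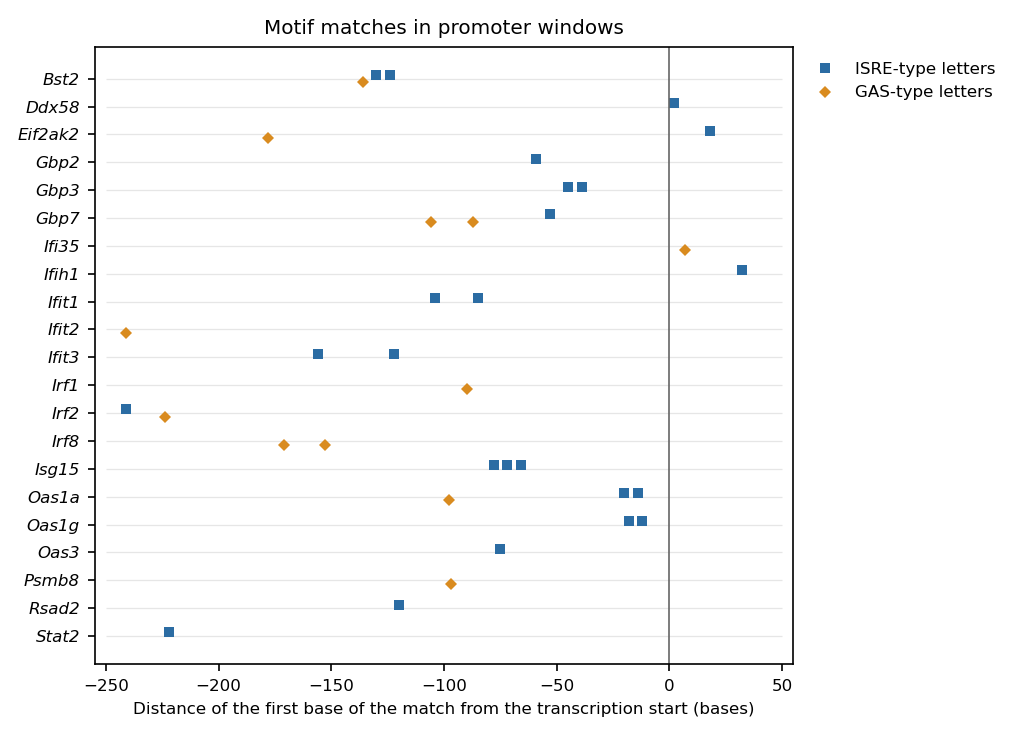
Positions of ISRE letters (squares) and GAS letters (diamonds) in the promoter windows of the 21 interferon-stimulated genes that hold either. The horizontal axis is the distance of the first base of the match from the transcription start in bases, and 1 row is 1 gene. ISRE matches before the start lie between -156 and -12, those of Isg15 at -78, -72 and -66, except in Irf2 and Stat2, which hold theirs at -241 and -222.

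Each value is a read count scaled to the size of its library and called CPM here. Reads on genes numbered from 28302983 to 38052705 per mouse, and 3 reads correspond to a value of 0.0789 to 0.105. Raly itself was at 50.1, 48.6 and 46.8 in the controls and 6.34, 6.61 and 7.39 in L-RalyKO livers, a log2 difference of -2.67 ± 0.0689 (SE, adjusted p = 6.92e-07, limma), in the direction of the labels. All 8 hepatocyte markers examined were detected in every liver. They summed to between 105694 and 106623 in L-RalyKO and between 92956 and 101349 in control mice. Most of each sum was Alb, with means of 70565 in L-RalyKO and 68256 in controls, whose groups overlapped (adjusted p = 0.889, limma). Of the 8, 2 rose (25%, against 3.36% of all tested genes). Hnf4a was higher by 0.55 and Pck1 by 0.78 on the log2 scale (adjusted p = 0.0155 and 0.00312, limma). All 8 differences were positive, with a median of 0.20. In 4 of the 8 markers every L-RalyKO value lay above every control value, against 14.4% of all tested genes. Sums of 4 pan-leukocyte markers (Ptprc, Laptm5, Coro1a, Cd52) were lower in L-RalyKO mice without overlap, 18.4 to 24.0 against 24.2 to 27.4, although none of the 4 passed the test. The part of these markers in the results that follow was not tested, and in whole liver fewer cells of a type and less RNA per cell cannot be told apart.

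All 37 interferon-stimulated genes had reads in all 6 livers, and most of them differed little between the groups. Irf1, Irf7, Usp18 and Mx2 rose in L-RalyKO livers, by 1.29 to 1.44 times on the deposited scale, and none of the set fell past the threshold. The test was limma on log2(value + 1) over the 11580 genes whose mean value reached 1, p-values were adjusted over all of them by the Benjamini-Hochberg method, and a gene was called at an adjusted p under 0.05. Of the 37 genes 36 were tested, as Oas1g was below that level. The added 1 makes the log2 differences of genes with low values smaller. With 0.1 added instead, the difference of Mx2 was 0.471 and not 0.373, and that of Ifi44 was 0.559 and not 0.393. The 4 called are 11.1% of the 36, all of them higher (11.1%), whereas among all tested genes 6.55% were called, 3.36% higher and 3.19% lower. At an unadjusted limma p under 0.05, 10 genes were higher (27.8%, against 11.8% of all tested genes) and 2 lower (Oasl1 and Tap1, 5.56% against 10.9%). DESeq2 and edgeR, run on the read counts recovered from the values, each called Irf1, Irf7 and Usp18 higher and 1 gene lower, Tap1. On the same counts limma voom called Irf7 and Usp18 higher and none lower. Mx2 was not called by any of these tools. In 9 genes every L-RalyKO value lay above every control value (25%, against 14.4% of all genes) and in 3 every one lay below (8.33%, against 13.7%). The median difference over the 36 was 0.07 (log2), with 25 positive, beside a median of 0.00444 over all tested genes. These p-values measure the spread among these mice, and with 3 against 3 an exact permutation test of a single gene cannot give a p below 0.1.

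No single call was stable to the loss of every mouse. With any 1 of the 6 mice left out, at most 1 of the set was called higher: none without control 1 or L-RalyKO 2, Irf7 without control 2 (with Tap1 lower), Usp18 without control 3 or L-RalyKO 1, and Irf1 without L-RalyKO 3. Over the 16 other settings tried, Usp18 was called in 11, Irf7 in 8, Irf1 in 7, Tap1 in 4, Mx2 in 3, Ifi44 in 2 and Rsad2 in 1. The sign of the difference of these 7 genes was the same in all 16.

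**Figure D2:**
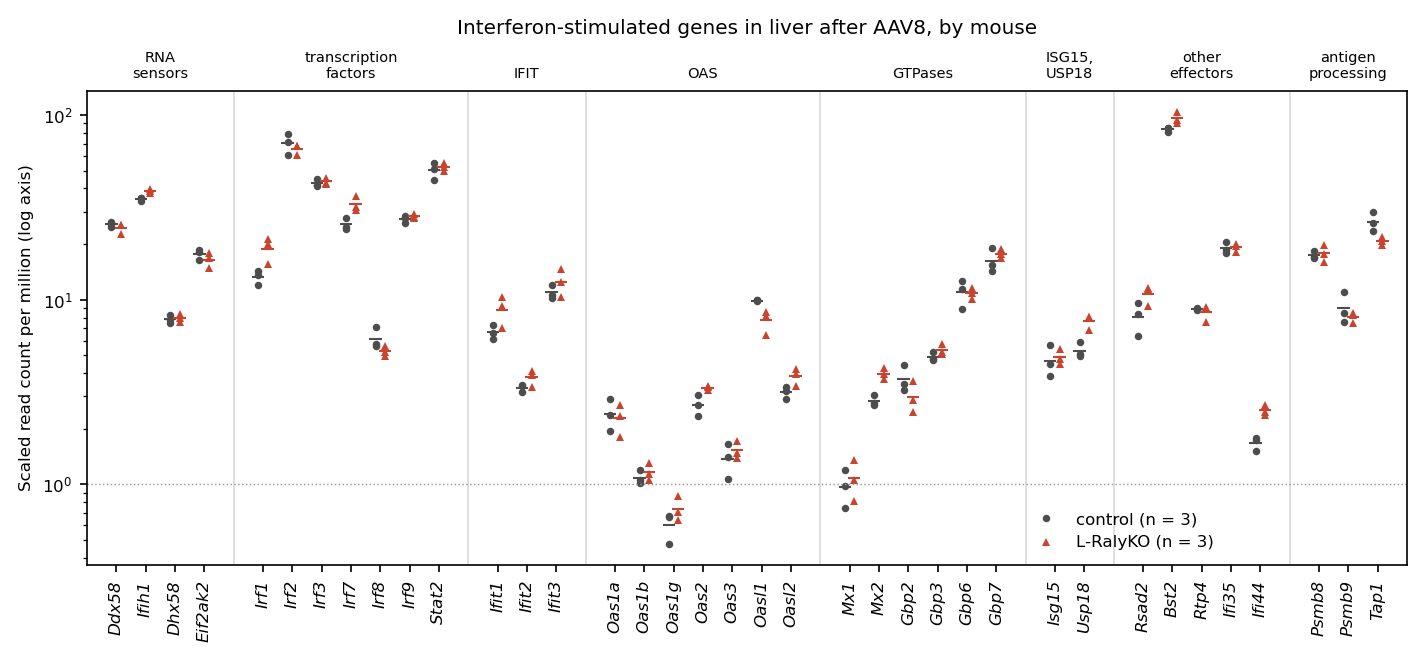
Scaled read count (CPM, log axis) of the 37 interferon-stimulated genes in each control mouse (grey circles) and each L-RalyKO mouse (red triangles), with n = 3 per group and a bar at each group mean. Genes are ordered by role and the dotted line marks a value of 1. Bst2 and Irf2 have the highest values and Oas1g, from 0.477 to 0.87, the lowest, and for most genes the 2 groups overlap.

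Of the 7 transcription factors 2 rose, Irf1 and Irf7 (28.6%, against 3.36% of all tested genes). No test compared the roles with each other. IRF1, a factor induced by interferon gamma and other inflammatory signals, had transcript values of 13.5, 14.2 and 12.1 in the controls (13.3 ± 1.10, SD, n = 3) and 19.9, 21.3 and 15.5 in L-RalyKO livers (18.9 ± 3.0, SD, n = 3). All 3 L-RalyKO values lay above the controls, the third mouse closest to them. The log2 difference of Irf1 was 0.47 ± 0.114 (SE, 95% interval 0.21 to 0.73, adjusted p = 0.0466, limma). Irf1 (chr11:53583516-53591876, mm9) overlaps the span of Gm17334 on the opposite strand by 907 bases, introns included, and whether the counting used strand is not stated.

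IRF7 amplifies the production of type I interferon and is itself induced by it. Its transcript stood at 24.2, 27.7 and 24.8 in the controls (25.6 ± 1.88, SD, n = 3) and at 30.8, 36.3 and 31.7 in L-RalyKO livers (32.9 ± 2.98, SD, n = 3), again with no overlap. The log2 difference of Irf7 was 0.35 ± 0.079 (SE, 95% interval 0.17 to 0.53, adjusted p = 0.0375, limma). Irf7 lies at chr7:148448605-148452380 (mm9) and overlaps the span of Phrf1 on the opposite strand by 45 bases. Phrf1 had means of 29.4 in controls and 28.6 in L-RalyKO.

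The remaining factors did not pass the test. For Irf9, the DNA-binding subunit of the complex with STAT2, values were 28.4, 27.7 and 26.2 in controls and 27.8, 29.0 and 28.0 in L-RalyKO, a difference of 0.04 with an interval of -0.08 to 0.17. Stat2, the partner of IRF9, was at 50.9, 54.9 and 44.5 against 52.3, 49.8 and 55.3 (0.07, interval -0.11 to 0.25). Both pairs of groups overlapped. Irf3, the factor that sensors activate to start interferon transcription and that is present without induction, was at 41.3, 45.2 and 41.5 against 45.7, 42.9 and 42.3 (0.03, interval -0.10 to 0.16). Irf2, which can oppose IRF1 at shared sites, was at 71.8, 60.9 and 79.0 against 68.3, 67.5 and 60.4 (-0.10, interval -0.32 to 0.11). Irf8 is a factor of macrophages, dendritic cells and B cells. It was the only factor lower without overlap, at 5.72, 5.61 and 7.11 in controls and 4.94, 5.22 and 5.60 in L-RalyKO (-0.19, adjusted p = 0.318, limma). The pan-leukocyte sums given above moved the same way as Irf8, and their part in its values was not tested. Irf8 lies within the span of Gm20388 on the same strand, but none of its 50-base transcript words occurs in another gene.

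USP18 removes ISG15 from proteins and also blocks signalling at the interferon receptor, which makes it a brake on the response. Usp18 was at 5.07, 4.94 and 5.89 in the controls (5.30 ± 0.516, SD, n = 3) and 6.84, 8.04 and 8.08 in L-RalyKO livers (7.65 ± 0.706, SD, n = 3). The groups were apart in every mouse, with a log2 difference of 0.46 ± 0.096 (SE, 95% interval 0.24 to 0.68, adjusted p = 0.0283, limma), the smallest adjusted p of the set. Usp18 lies at chr6:121195924-121220934 on the + strand (mm9). The modifier itself showed no such separation: Isg15 was at 3.87, 5.68 and 4.49 against 4.80, 4.50 and 5.42 (0.07, interval -0.22 to 0.35).

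Among the GTPases, the Mx proteins trap viral components and the guanylate-binding proteins (GBPs) act on intracellular pathogens and their vacuoles. Mx2 was at 2.77, 3.05 and 2.70 in controls (2.84 ± 0.184, SD, n = 3) and 3.72, 3.95 and 4.26 in L-RalyKO (3.98 ± 0.271, SD, n = 3). Every L-RalyKO mouse was above every control, and Mx2 rose by 0.37 ± 0.091 (SE, 95% interval 0.17 to 0.58, adjusted p = 0.0477, limma) from between 87 and 162 reads per mouse. The call was lost on recovered reads with DESeq2 (adjusted p = 0.0879), limma voom (adjusted p = 0.0558) and edgeR (adjusted p = 0.0549). Of the 50-base words of Mx2 transcripts (chr16:97757690-97782506, + strand, mm9), 6.71% also occur in Mx1. Its neighbour Mx1 was near the lower limit of the test, at 0.745, 0.982 and 1.19 against 0.814, 1.36 and 1.05 (0.07, interval -0.25 to 0.40), and overlapped between the groups.

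The 4 GBP genes gave differences of either sign, and all overlapped. Gbp2 was at 3.49, 3.23 and 4.43 in controls and 2.85, 2.47 and 3.63 in L-RalyKO (-0.25, interval -0.56 to 0.07). Gbp3 was at 4.74, 5.19 and 4.76 against 5.21, 5.11 and 5.76 (0.11), and Gbp7 at 15.4, 14.3 and 19.0 against 17.7, 16.7 and 18.8 (0.13). For Gbp6 the values were 12.6, 8.91 and 11.5 against 10.1, 11.5 and 10.9 (-0.01), but 80.0% of its 50-base words occur in other genes, mostly in Gbp10, and its count is uncertain.

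**Figure D3:**
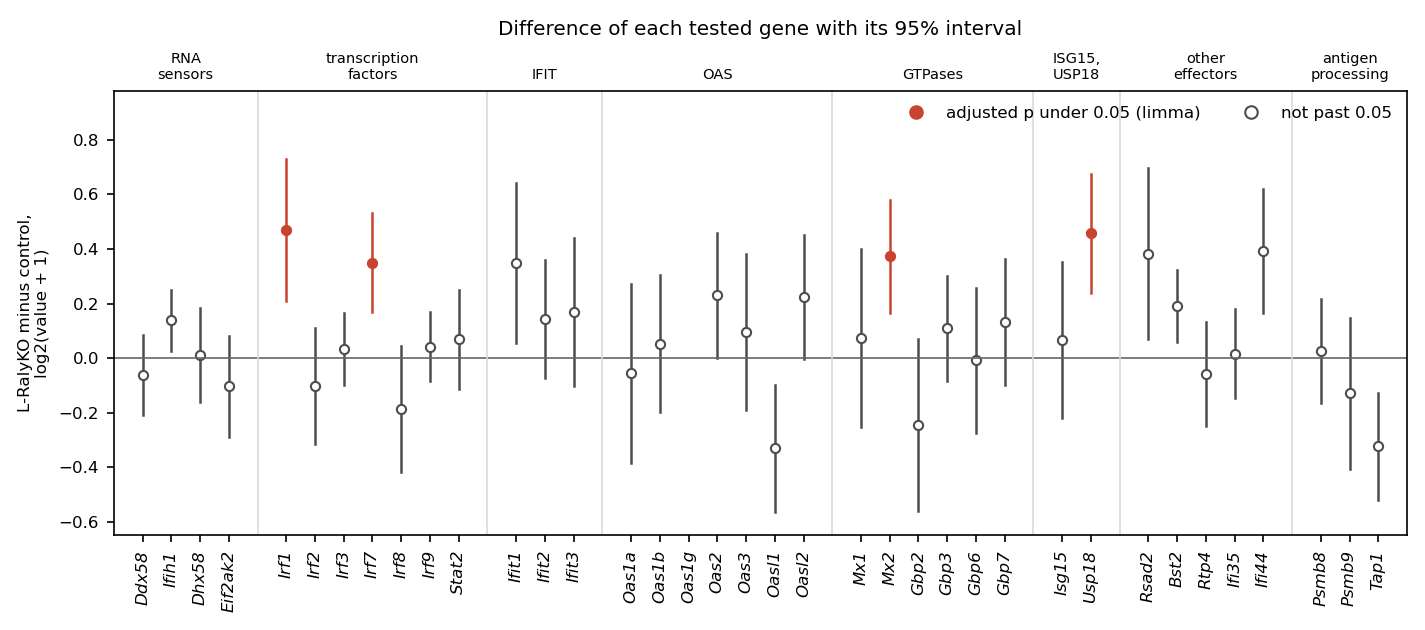
Difference of each of the 36 tested interferon-stimulated genes, L-RalyKO minus control on log2(value + 1), with its 95% interval from limma. The added 1 makes the differences of genes with low values smaller. Filled red points have an adjusted p under 0.05 and open points do not. Irf1, Irf7, Mx2 and Usp18 are filled, at 0.35 to 0.47, and Oasl1 and Tap1 are the lowest open points, at -0.33 and -0.32.

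RNA sensors start the response in an infected cell, and none of the 4 passed the test. Ifih1, which encodes MDA5, the sensor of long double-stranded RNA, was at 34.4, 35.4 and 35.7 in controls and 39.8, 38.8 and 37.8 in L-RalyKO. The groups were apart but the distance was small, 0.14 with an interval of 0.03 to 0.25 (adjusted p = 0.14, limma). Ddx58 (RIG-I, which senses RNA with a triphosphate end) was at 24.6, 25.7 and 26.2 against 25.4, 22.5 and 25.4 (-0.06). Dhx58 (LGP2, which tunes the other sensors) was at 8.29, 7.78 and 7.52 against 7.91, 8.38 and 7.53 (0.01), and Eif2ak2 (PKR, a kinase that halts translation) at 16.5, 18.1 and 18.6 against 14.8, 16.7 and 17.8 (-0.10). Values of these 3 overlapped, and their intervals lay within -0.29 and 0.19.

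IFIT proteins bind viral RNA and hold it away from translation. Ifit1 was at 6.11, 7.29 and 6.60 in controls and 7.01, 10.3 and 9.21 in L-RalyKO, so the first L-RalyKO mouse lay among the controls. Its difference of 0.35 (interval 0.06 to 0.64) had an adjusted p of 0.151 (limma). Ifit3 followed the same order of mice within each group, 10.2, 12.1 and 10.6 against 10.4, 14.7 and 12.4 (0.17), with 51.5% of its 50-base words shared with I830012O16Rik. Ifit2 was at 3.46, 3.40 and 3.16 against 3.37, 3.92 and 4.10 (0.14), also overlapping.

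OAS enzymes make the short oligoadenylates that activate RNase L, while the OAS-like proteins lack or have altered activity. None of the 6 tested genes of this family passed the test, and the 2 OAS-like genes, neighbours on chromosome 5, lay on opposite sides. Oasl1, known to limit translation of IRF7, was at 9.96, 9.78 and 9.95 in controls and 6.40, 8.62 and 8.13 in L-RalyKO, all lower (-0.33, interval -0.56 to -0.10, adjusted p = 0.0941, limma). Oasl2 was at 3.37, 2.91 and 3.22 against 3.96, 3.42 and 4.24, all higher (0.22, adjusted p = 0.227, limma). Oas2 had 2.35, 3.05 and 2.70 against 3.23, 3.39 and 3.37, also without overlap (0.23, adjusted p = 0.218, limma).

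The other OAS genes were at low levels and overlapped between the groups. Oas1a was at 1.94, 2.91 and 2.38 against 1.80, 2.35 and 2.68 (-0.06), and Oas3 at 1.07, 1.65 and 1.41 against 1.72, 1.39 and 1.47 (0.09). Oas1b was at 1.01, 1.05 and 1.19 against 1.13, 1.31 and 1.05 (0.05). Oas1g, not tested, was at 0.477, 0.666 and 0.676 against 0.640, 0.870 and 0.710, from 16 to 30 reads a mouse. Of the 50-base words of Oas1a, 53.0% occur in Oas1g, and of those of Oas1g 50.6% occur in other genes, mostly in Oas1a, so both counts are uncertain.

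Among the other effectors, Rsad2 (viperin, which makes a chain-terminating nucleotide) was at 6.35, 9.54 and 8.33 in controls and 9.28, 11.5 and 11.4 in L-RalyKO. The lowest L-RalyKO value was below the highest control, and the difference of 0.38 had an interval of 0.07 to 0.70 (adjusted p = 0.142, limma). Bst2 (tetherin, which holds budding virus at the membrane) was at 85.1, 85.2 and 81.3 against 93.4, 103 and 91.0, higher in all 3 mice but not past the threshold (0.19, adjusted p = 0.0925, limma). Ifi44, an interferon-induced cytoplasmic protein, was also higher in all 3, at 1.79, 1.51 and 1.73 against 2.47, 2.70 and 2.37, from 43 to 93 reads. It stood just short of the threshold (0.39, adjusted p = 0.0543, limma). Rtp4, a chaperone of receptors, was at 8.85, 9.01 and 8.84 against 8.93, 7.54 and 9.13 (-0.06). Ifi35 was at 18.6, 18.0 and 20.6 against 19.6, 18.2 and 20.1 (0.02), with both groups overlapping, as were those of Rtp4.

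None of the 3 genes of antigen processing passed the test. Tap1, a subunit of the transporter that brings peptides to MHC class I, was at 29.8, 23.6 and 26.0 in controls and 22.0, 19.7 and 20.9 in L-RalyKO. All 3 L-RalyKO values were lower, by -0.32 on the log2 scale (interval -0.52 to -0.13, adjusted p = 0.0628, limma, 0.0158 with DESeq2). Psmb8 and Psmb9 encode subunits of the immunoproteasome. Psmb8 was at 16.9, 17.0 and 18.3 against 17.6, 15.9 and 19.9 (0.03), and Psmb9, whose span overlaps that of Tap1 by 212 bases on the opposite strand, at 11.0, 7.61 and 8.43 against 8.29, 7.51 and 8.42 (-0.13). Both overlapped between the groups.

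**Figure D4:**
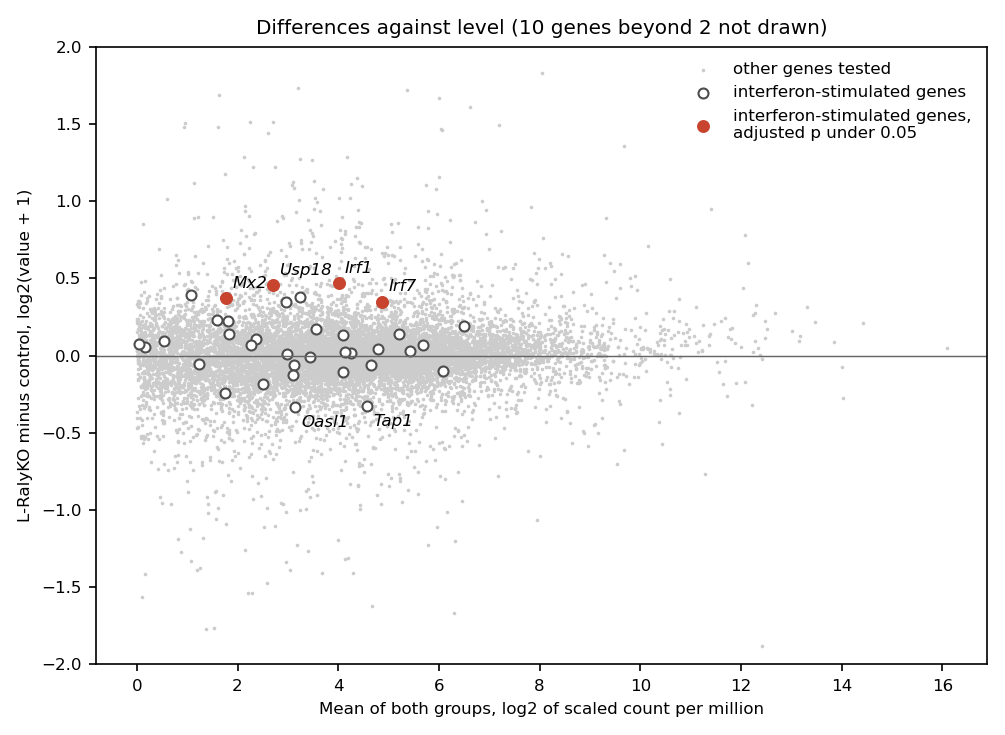
Difference between L-RalyKO and control (log2(value + 1)) against the mean level of both groups (log2 of scaled CPM) for all 11580 tested genes (grey) and the 36 interferon-stimulated genes (circles, filled red at an adjusted p under 0.05). The interferon-stimulated genes lie between -0.33 and 0.47, inside the cloud of the other genes, and 10 genes with differences beyond 2 are not drawn.

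Per kilobase of exon the mean level over the 6 mice ran from 0.278 for Oas3 to 118 for Bst2. Irf2 (27.4), Irf3 (13.5), Stat2 (11.6), Ifi35 (11.1) and Irf7 (9.68) followed Bst2, and Oas1g, Mx1 and Ifi44 stood beside Oas3 at the low end (0.282, 0.281 and 0.342). Among the called genes the mean level per kilobase was 9.68 for Irf7, 4.05 for Irf1, 3.66 for Usp18 and 1.41 for Mx2, so they were found from the upper to the lower part of the range. The induced effectors Ifit1 (2.92), Isg15 (6.34) and Rsad2 (2.17) lay well below the factors Irf2 and Irf3. Other effectors did not, as Bst2 lay above both factors and Ifi35 lay near Irf3.

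Within a group the mice differed in how many of these genes they held the lowest or highest value for. Control 1 was the lowest control in 17 of the 37 genes, among them Ifit1, Ifit3, Isg15 and Rsad2, and L-RalyKO 1 the lowest of its group in 16, among them Ifit1, Ifit2, Ifit3, Rsad2 and Usp18. L-RalyKO 3 was the highest of its group in 17 genes and L-RalyKO 2 in 15, including Irf1, Irf7, Ifit1, Ifit3 and Bst2, while L-RalyKO 1 was highest in 5. Control 1 was also the highest control in 9 genes, and L-RalyKO 2 the lowest of its group in 13. Whether these counts differ from those of other genes was not tested. Deviations of each mouse from the mean of all mice were taken as a median over all 37 genes, the untested Oas1g included. They were -0.074, -0.023 and -0.048 (log2) in controls and 0.00946, 0.0123 and 0.0623 in L-RalyKO. All 3 L-RalyKO livers thus stood above all 3 controls by a small amount. Over all tested genes the same medians ran from -0.00402 (control 2) to 0.00607 (L-RalyKO 2).

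The promoter letters can be set beside the differences only for genes with a window, which leaves out Usp18 and Mx2, 2 of the 4 genes that rose. Of the 15 tested genes with ISRE letters none was called, and their median difference was 0.09. Of the 13 with a window but no ISRE letters 2 were called, Irf1 and Irf7, and the median was 0.03. Across all tested genes 332 had ISRE letters, with a median of 0.02 and 6.02% called, beside 6.43% of the 8473 without. For GAS letters, 1 of 10 tested genes with them was called (Irf1), with a median of 0.02, and 1 of 18 without (Irf7), with a median of 0.08. Across all tested genes 5.99% of the 751 with GAS letters were called, beside 6.46% of the 8054 without. With so few genes called, the shares within the set were not compared.

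The interferons themselves were hardly detected. Of 23 interferon symbols 21 were in the table and 18 were at 0 in all 6 mice, Ifnb1 and every Ifna gene listed among them, which allows a value of up to 0.0789 to 0.105 per mouse and gene. Ifng had reads in 4 mice, at most 0.058, and all interferon genes together had between 0 and 4 reads per mouse. The receptor chains were present except for Ifnlr1, which had means of 0.0577 in controls and 0.121 in L-RalyKO. It came from 1 to 7 reads a mouse and was not tested. Ifnar1 was at 43.3, 46.6 and 49.0 in controls and 50.8, 51.3 and 49.4 in L-RalyKO (0.12, adjusted p = 0.239, limma). None of the 9 tested genes of receptors and JAK-STAT signalling passed the test. Jak2, with the smallest p, differed by 0.16 (adjusted p = 0.216, limma).

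Of the further lists of the pathway, none held more than 5 called genes. Among 15 tested genes of nucleic acid sensing and adaptors none rose and 1 fell (6.67%, against 3.19% of all tested genes called lower and 6.55% called either way). It was Trim25, a ubiquitin ligase that activates RIG-I, at 146, 145 and 153 in controls and 124, 129 and 124 in L-RalyKO (-0.23, adjusted p = 0.024, limma). Among 7 tested negative regulators 1 rose (14.3%, against 3.36%). This was Socs3, a feedback inhibitor of JAK kinases that is known above all as a target of STAT3, at 2.15, 2.59 and 3.54 against 13.6, 12.3 and 5.18. Its log2 difference of 1.51 (adjusted p = 0.0214, limma) rested on wide values, with the third L-RalyKO mouse nearest the controls, as for Irf1. The call of Socs3 was lost with limma voom (adjusted p = 0.0611) and edgeR (adjusted p = 0.0782) on recovered reads.

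Of 58 other tested interferon-stimulated genes 2 rose and 3 fell (3.45% and 5.17%, against 3.36% and 3.19% of all tested genes). Apol9a and Apol9b, apolipoprotein L genes, were higher by 0.50 and 0.51 (adjusted p = 0.0403 and 0.0126, limma), but 52.5% of the 50-base words of Apol9a occur in other genes, mostly in Apol9b, which likewise shares most with Apol9a. Samd9l, an antiviral factor that restrains translation, was at 19.6, 18.9 and 18.4 against 14.3, 14.6 and 13.9, without overlap (-0.39, adjusted p = 0.00811, limma). Znfx1, a sensor helicase, was lower by -0.27, and Ifi47, an immunity-related GTPase, by -0.46 (adjusted p = 0.0279 and 0.0461, limma). The median of this list was -0.03, with 27 positive and 31 negative. Samd9l and Apol9b were called whichever mouse was left out. Trim25 lost its call without control 1, L-RalyKO 1 or L-RalyKO 3 (adjusted p up to 0.0946), and Socs3 without control 1, control 2, L-RalyKO 1 or L-RalyKO 2 (up to 0.078, limma). Apol9a lost it without any 1 of the L-RalyKO mice (up to 0.118), Znfx1 without control 1, control 2, L-RalyKO 1 or L-RalyKO 3 (up to 0.0992) and Ifi47 without control 1, control 3, L-RalyKO 1 or L-RalyKO 2 (up to 0.147, limma). Without an intensity trend in limma, Trim25, Apol9a, Znfx1 and Ifi47 were not called either (adjusted p between 0.0631 and 0.0712), nor was Ifi47 with genes down to a mean of 0.1 included (0.0541). When any gene above 0 was tested, Socs3, Apol9a and Ifi47 were not called (adjusted p between 0.055 and 0.0988).

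Of 13 tested genes of MHC class I presentation 1 rose (7.69%, against 3.36% of all tested genes called higher and 6.55% called either way). This was H2-T23, which encodes Qa-1, at 141, 159 and 136 against 175, 173 and 175 (0.26, adjusted p = 0.0422, limma). None fell. H2-T23 shares 14.8% of its 50-base words with other genes, mostly with H2-Q2, and its call was kept only without control 2 (adjusted p up to 0.129 without another mouse, limma). It was also lost with total count scaling (0.0662), without an intensity trend (0.0863), with any gene above 0 tested (0.0673) and with the replicate block (0.0535, limma). None of the 7 genes of MHC class II passed the test and all 7 differences were negative, with a median of -0.39. Cd74, the invariant chain, was at 51.7, 42.7 and 57.4 against 39.7, 26.9 and 40.3 (-0.51, adjusted p = 0.0978, limma). Class II is carried by antigen-presenting cells. The pan-leukocyte sums given above were also lower in L-RalyKO, 18.4 to 24.0 against 24.2 to 27.4. Their part in the class II values was not tested. Kupffer cell markers summed to 225 to 321 in controls and 224 to 289 in L-RalyKO, with 0 of 11 called, and B cell markers to 1.43 to 2.70 and 1.47 to 1.68. Markers of T and NK cells summed to 2.03 to 2.62 in controls and 2.76 to 3.52 in L-RalyKO, where the natural killer receptor gene Ncr1 was at 0 in 1 control. Cd4, with means of 0.725 and 1.27, made up most of that difference in the sum, whereas the T cell receptor subunits Cd3e, Cd3d and Cd3g had lower means in L-RalyKO (ratios of 0.692, 0.744 and 0.666) from 3 to 15 reads a mouse, with overlapping groups. The other members of that list went either way, with ratios of 1.82 for Klrb1c, whose groups did not overlap, and of 2.92 for Ncr1, 2.26 for Gzma, 1.13 for Cd8a, 1.09 for Nkg7 and 0.635 for Cd8b1, whose groups did, from at most 22 reads a mouse. Those of dendritic cells summed to 3.61 to 4.16 against 4.07 to 4.53, overlapping, where Zbtb46 had means of 2.11 and 2.78 while Itgax, Flt3, Xcr1, Ccr9 and Siglech had ratios of 0.628, 0.737, 0.906, 1.08 and 1.54 with overlapping groups. Those of sinusoidal endothelial cells summed to 235 to 245 against 207 to 265. Cholangiocyte markers summed to 4.62 to 5.93 against 6.85 to 8.35. Markers of neutrophils (1.79 to 3.35 against 1.26 to 2.59) and of stellate cells (219 to 234 against 204 to 254) overlapped. The part of these cells in the values of the interferon-stimulated genes was not tested.

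**Figure D5:**
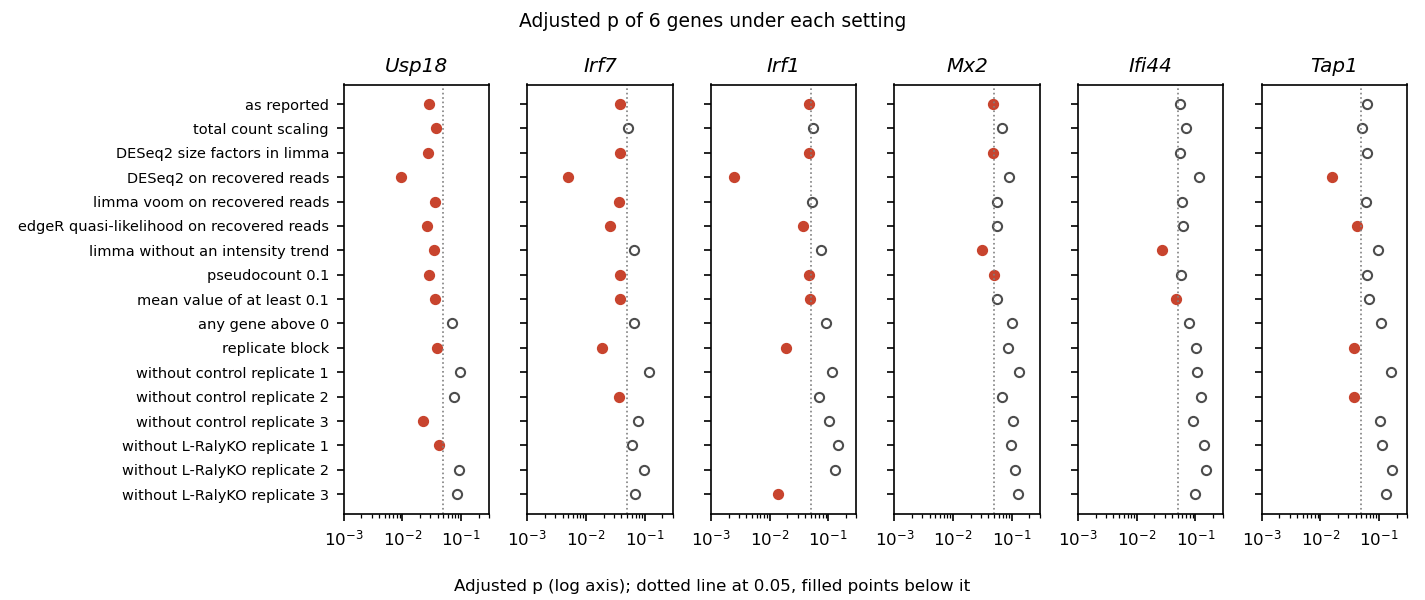
Adjusted p (log axis) of 6 interferon-stimulated genes under the reported analysis and 16 other settings, 1 row each. Filled points lie below 0.05, which the dotted line marks. Usp18 is filled in 11 of the 16, Irf7 in 8, Irf1 in 7, Tap1 in 4, Mx2 in 3 and Ifi44 in 2.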

How the data were processed

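The liver RNA-seq libraries of 3 mice per group were used, and the ATAC-seq and ChIP-seq samples were not analysed here. Each column names a virus and a number, which gave its group and replicate. By the study's methods, stranded libraries were aligned with TopHat to mm9 and quantified with Cufflinks 2.0.2 (the version also in the submitters' processing notes), and FPKM values were compared with Cuffdiff. The deposited values are not FPKM, and the step by which the authors made them is not given in the sources used here. The deposited values are a normalized signal: within a tolerance of 0.01, 100% of the values of each library were whole multiples of the value of 1 read, and the implied scaling was the same as TMM factors from edgeR. The main test was therefore limma 3.58.1 (R 4.3.3, intensity trend) on log2(value + 1), which the design had set for values that are not counts. Genes with a mean of at least 1 were tested. On the recovered whole reads edgeR 4.0.16 called 783 genes and DESeq2 1.42.0 called 1088, against 758 with limma. Limma, edgeR and DESeq2 were first tested on simulated data.

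The members and gene lists were chosen with earlier results of these data known. All 37 genes are named, and of each further list the genes with an adjusted p under 0.05 or, where there was none, some of up to 3 with the smallest p. Ifnb1, Ifng, Ifnar1, the T and NK cell, dendritic cell and pan-leukocyte markers were named outside this rule after their values were seen. Gene positions, exon lengths and 50-base words shared between transcripts come from GENCODE vM1 (NCBIM37, mm9), and promoter sequences from RefSeq (GRCm38.p6). The precision is limited by 3 mice per group, and the part of sequencing depth in it was not tested.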

Additional observations from a re-analysis of the deposited data

How the results depend on the processing

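The count of interferon-stimulated genes called higher was 4 in the reported analysis. It fell to 1 with reads divided by their total count, which moved the median of all genes to -0.03, to 2 with limma voom and to 0 when any gene above 0 was tested. The count called lower was 0 and became 1, Tap1, with DESeq2, with edgeR on recovered reads and with the replicate block. With 1 mouse left out, between 0 and 1 were called higher and between 0 and 1 lower. Over all genes 758 were called in the reported analysis, 484 when any gene above 0 was tested and between 335 and 812 with 1 mouse left out. The median difference of the set stayed positive under all 16 settings, between 0.04 and 0.10. Adjusted p ranged from 0.00967 to 0.0943 for Usp18, 0.00498 to 0.121 for Irf7, 0.00248 to 0.148 for Irf1, 0.0306 to 0.131 for Mx2, 0.0158 to 0.169 for Tap1 and 0.0264 to 0.149 for Ifi44. Raly was called lower in all 16. Same-numbered mice are different animals, and the correlations of their deviations were 0.066, -0.024 and 0.020, so the numbers do not pair them. The pair numbered 1 correlated best with each other and the others did not. With the number as a replicate block 4 genes were called higher (Irf1, Irf7, Usp18 and Rsad2, without Mx2), 1 lower, and 704 genes in all, and the median difference of the set was 0.07. The cause of these shifts was not tested. Oas1b, Oas1g and Mx1 had under about 50 reads in every mouse, and the part of counting error in their values was not tested.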
